A study of Mus musculus with 8 samples.

Results

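The fibrillar collagens are the gene family behind the load-bearing fibers of the heart. The 7 members, Col1a1, Col1a2, Col3a1, Col5a1, Col5a2, Col5a3 and Col11a1, were chosen by gene symbol, and they are 7 of the 18957 genes in the deposited count tables. The libraries were made from total RNA of PDGFRA+ cells that FACS had isolated from mouse ventricular tissue, depleted of ribosomal RNA and sequenced with strand information, with 1 library from each of 8 mice. The WT group held 4 mice, and the Pdgfra-Cre:LmnaF/F group held 4 mice in which a Cre recombinase from a Pdgfra BAC transgene deleted the floxed exon 2 of both Lmna alleles. The strain of all mice was C57BL/6 (mixed) and their age 3 to 4 weeks. The sort kept cells positive for PDGFRA, a receptor of cardiac fibroblasts, and negative for hematopoietic lineage markers. Some cardiac myocytes pass through a stage of Pdgfra transcription during development, so the deletion was not exclusive to fibroblasts, and libraries from mice with the Cre transgene and intact Lmna were not analysed here.

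Fibrillar collagens are made as procollagen chains that wind around each other in threes to form a rod. Glycine, the smallest amino acid, recurs along the rod as the residue that fits in the center of the helix, in a repeat written Gly-X-Y. Type I collagen is a heteromer of the Col1a1 and Col1a2 chains and gives the myocardium its tensile strength. Type III collagen is a homomer of the Col3a1 chain and forms the finer, more compliant fibers that run beside type I. Type V collagen, made of the Col5a1, Col5a2 and Col5a3 chains, and type XI collagen, of which Col11a1 is a chain, are minor fibrillar collagens that lie inside the fibril, start its assembly and limit its diameter. Cardiac fibroblasts are the main source of these chains in the heart. In fibrosis they deposit more of them.

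The repeat that makes a fibrillar collagen could be read directly from the annotated transcripts (GENCODE M21 on mm10, the build of the deposited counts). In the principal transcript of each member, glycine codons (GGN) opened every Gly-X-Y triplet, without a break, for 337 triplets in Col5a3 to 344 in Col3a1. Many of the coding exons were 54 bases long, which is 6 triplets of Gly-X-Y. There were 21 such coding exons of 51 in Col1a1, 24 of 51 in Col3a1, 29 of 66 in Col5a1 and 31 of 67 in Col5a3. A 54-base exon from the middle of the repeat is printed for a major chain of type I and type III and for the type V chains with the lowest fold changes, with the glycine codons in capitals. They are exon 26 of Col1a1 (chr11:94944355-94944408, + strand), exon 26 of Col3a1 (chr1:45334761-45334814, + strand), exon 37 of Col5a1 (chr2:27998726-27998779, + strand) and exon 38 of Col5a3 (chr9:20785573-20785626, - strand).
Col1a1: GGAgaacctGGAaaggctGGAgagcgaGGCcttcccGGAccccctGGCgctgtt
Col3a1: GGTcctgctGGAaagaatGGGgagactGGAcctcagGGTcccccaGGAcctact
Col5a1: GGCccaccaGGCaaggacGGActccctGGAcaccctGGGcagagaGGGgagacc
Col5a3: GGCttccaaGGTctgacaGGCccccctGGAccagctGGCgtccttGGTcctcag
The exons were taken among those that start at a glycine codon of the repeat, so this choice set their common frame. The codons between the glycines differed. Proline codons (CCN) filled the last position of the triplet, where prolines are hydroxylated before the chains fold, in 27.7% of the triplets of Col1a2 and up to 41.6% of those of Col3a1. The shared repeat did not make the members indistinguishable to reads. Of the 21 pairs of members, 0 shared a stretch of 50 identical bases between their principal transcripts, and 3 shared any of 25 bases.

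The 7 genes lie on 6 chromosomes. Only Col3a1 (chr1:45311538-45349706, + strand) and Col5a2 (chr1:45374321-45503282, - strand) are neighbors, tail to tail, with 24614 bases and no other complete gene between them. The others are Col1a1 (chr11:94936224-94953042, + strand), Col1a2 (chr6:4504814-4541544, + strand), Col5a1 (chr2:27886425-28039514, + strand), Col5a3 (chr9:20770050-20815067, - strand) and Col11a1 (chr3:114030540-114220718, + strand). All coordinates are of mm10. A pair of noncoding genes lies on the opposite strand of Col5a1 and the noncoding gene Gm26274 on that of Col5a3. Col1a2, Col3a1 and Col5a2 each overlap 1 small annotated gene on their own strand. The strand setting of the authors' counting is not given in the sources used here.

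The shallowest library, WT replicate 2, held 2080555 counts in all and the deepest 12502949. Lmna, the deleted gene, had 274 to 483 CPM (counts scaled to library size) in the WT libraries and 90.4 to 130.0 CPM in the Pdgfra-Cre:LmnaF/F libraries, and fell by 1.72 on the log2 scale (SE 0.22, adjusted p = 0.00492 from the quasi-likelihood test of edgeR). The fibroblast markers Pdgfra (1275 to 2761 CPM) and Tcf21 (115 to 327 CPM) were present in all 8 libraries. Of the 8 fibroblast markers, 1 was called lower and 0 higher. That marker was Thy1, a surface glycoprotein, with 133 to 305 CPM in the WT and 35.6 to 48.5 CPM in the Pdgfra-Cre:LmnaF/F libraries, and it fell by 2.18 on the log2 scale (SE 0.26, adjusted p = 0.00273, edgeR). The summed level of 9 hematopoietic markers was 38.0 to 162 CPM in the WT, 43.9 to 91.8 CPM in Pdgfra-Cre:LmnaF/F replicates 1 to 3 and 393 CPM in replicate 4. None of the 5 tested was called, and the one with an unadjusted p under 0.05 was Csf1r, a macrophage receptor (log2 fold change 1.57, SE 0.51, adjusted p = 0.213, edgeR). Only 1 of the 5 tested had a negative log2 fold change. It was Ptprc (-0.046), the defining hematopoietic marker, at 0 to 12.9 CPM. The summed level of 10 cardiac myocyte markers was 770 to 1069 CPM in the WT libraries and 345 to 944 CPM in Pdgfra-Cre:LmnaF/F replicates 1 to 3. It was 6050 CPM in Pdgfra-Cre:LmnaF/F replicate 4, which therefore stood apart. Of these 10 markers 0 were called, 9 had a positive fold change, and 2 were higher at an unadjusted p under 0.05. The one of lowest p, Myh7, a myosin heavy chain, had 6.32 to 16.1 CPM in the WT and 12.4, 27.9, 61.7 and 194 CPM in Pdgfra-Cre:LmnaF/F replicates 1 to 4 (log2 fold change 2.72, adjusted p = 0.101, edgeR), and its log2 fold change was 1.58 without replicate 4. The summed level of 8 endothelial markers was 624 to 904 CPM in the WT and 498 to 775 CPM in the Pdgfra-Cre:LmnaF/F libraries, with 0 called, 7 of 8 fold changes negative, and 2 markers, Cdh5 and Tek, lower in every Pdgfra-Cre:LmnaF/F library than in any WT library. The log2 fold change was -1.17 for Cdh5 (adjusted p = 0.215, edgeR) and -0.59 for Tek (adjusted p = 0.208, edgeR, and 0.0327 in DESeq2). The epicardial markers summed to 13.4 to 46.3 CPM and 6.67 to 18.3 CPM, with 0 called and all 6 tested fold changes negative. The summed level of 14 genes of the dissociation response was 2088 to 5411 CPM in the WT and 7695 to 12868 CPM in the Pdgfra-Cre:LmnaF/F libraries, without overlap. Over all 13036 genes tested, 0.407% were called and 11.9% had an unadjusted p under 0.05, in either direction (edgeR). Of those genes, 518 were lower and 529 higher in every Pdgfra-Cre:LmnaF/F library than in any WT library. Of the 14 dissociation genes, 2 were called higher and 0 lower, and 11 were higher at an unadjusted p under 0.05. Of the 14, 10 were higher in every Pdgfra-Cre:LmnaF/F library than in any WT library. The called genes were the immediate-early genes Btg2 (log2 fold change 2.08, SE 0.37, adjusted p = 0.0315, edgeR) and Nr4a1 (1.92, SE 0.39, adjusted p = 0.0471, edgeR). The call of Btg2 was lost without WT replicate 1 or 4 or Pdgfra-Cre:LmnaF/F replicate 2 or 3 (adjusted p 0.0554 to 0.108), and that of Nr4a1 without any library but Pdgfra-Cre:LmnaF/F replicate 4 (0.0515 to 0.166), with upper-quartile factors (0.0502) and with Y-linked expression as a covariate (0.0827). The 4 Y-linked genes Ddx3y, Uty, Kdm5d and Eif2s3y were expressed in WT replicates 1, 2 and 4 and Pdgfra-Cre:LmnaF/F replicate 4 and were at or near 0 in the remaining 4 libraries, and the labels do not give the sex of the mice. The part of these differences in the collagen values was not tested beyond the values given beside them.

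Collagen RNA was a major product of the sorted cells of both genotypes. The 7 members together took 2.64% to 4.51% of all counts in the WT and 2.24% to 2.97% in the Pdgfra-Cre:LmnaF/F libraries. To compare genes of different length, CPM were divided by the length of the union of all annotated exons, in kb. Col3a1 was the highest member, at 1943 ± 486 CPM per kb in the WT (SD, n = 4) and 1364 ± 260.4 in the Pdgfra-Cre:LmnaF/F cells (SD, n = 4), above every other member in each of the 8 libraries. The type I chains followed, with 527 ± 253 CPM per kb for Col1a1 and 504 ± 119.6 for Col1a2 in the WT (SD, n = 4), and their ranges overlapped. Col5a1 came next with 357 ± 139.7 CPM per kb in the WT (SD, n = 4), below both type I chains in each library. Its WT range overlapped theirs.

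The lower end of the order held the other type V chains and the type XI chain. In the WT, Col5a3 had 178 ± 35.6 and Col5a2 173 ± 16.3 CPM per kb (SD, n = 4), with overlapping ranges. In the Pdgfra-Cre:LmnaF/F cells the ranges of these neighbors no longer overlapped, with 172 ± 40.5 CPM per kb for Col5a2 and 87.7 ± 21.7 for Col5a3 (SD, n = 4). Col11a1 was close to absent, with 0.42 ± 0.14 CPM per kb in the WT and 0.50 ± 0.20 in the Pdgfra-Cre:LmnaF/F cells (SD, n = 4), from 8 to 94 counts per library. The order of close neighbors depended on the length used. With the longest transcript in place of the union of exons, the WT mean of Col1a2 (1170.4 CPM per kb) lay above that of Col1a1 (583), and the WT mean of Col5a2 (249.9) lay above that of Col5a3 (198).

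**Figure D1:**
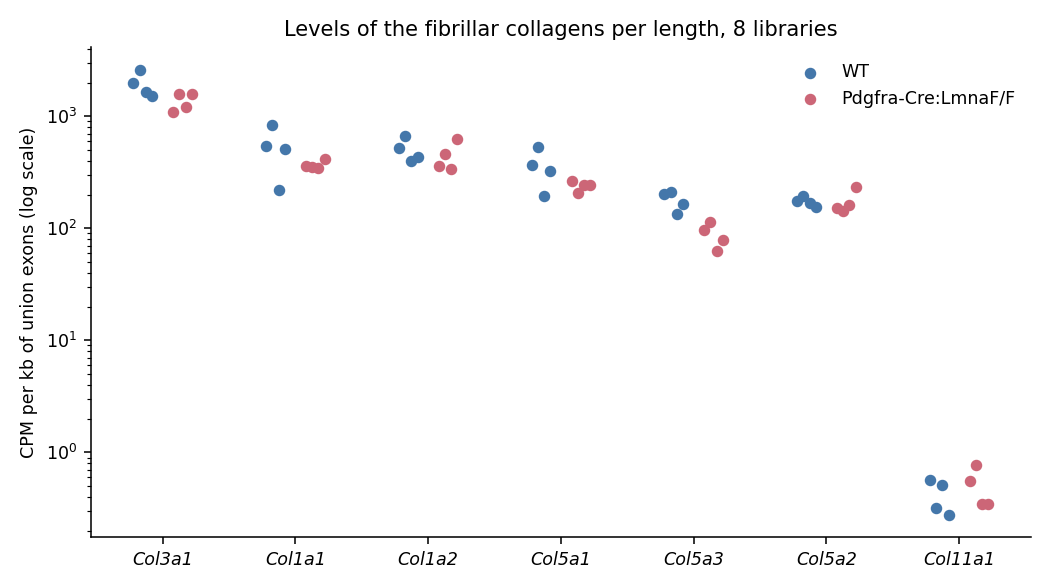
CPM per kb of union exons, on a log axis, for each member in the 4 WT and the 4 Pdgfra-Cre:LmnaF/F libraries; each point is a library. Col3a1 is the highest member in all 8 libraries and Col11a1 the lowest, and Col5a3 is the only one of the 7 whose points do not overlap between the genotypes.

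The genotype comparison asked whether loss of Lmna in the Pdgfra lineage changed collagen RNA in the fibroblasts before overt heart failure. In the edgeR test, 0 of the 7 members passed an adjusted p of 0.05, against 0.407% of the 13036 genes tested, 31 of them lower and 22 higher. With library totals in place of TMM factors the genes called were 24 lower and 26 higher, 0.384% of those tested, and again none was a member. At an unadjusted p under 0.05 there were 2 members, Col5a1 and Col5a3, against 11.9% of all genes. DESeq2 called 1 member, Col5a3, against 2.15% of its tested genes, and limma-voom also called Col5a3 alone among the members, against 0.967% of its tested genes. Without a filter on low counts edgeR called Col5a3 as well, against 1.45% of 18957 genes. The fitted log2 fold change was negative for 6 of the 7 members, against 48.2% of all genes, with a median of -0.51 over the members and 0.025 over all genes tested. Of these 6, Col5a2 was at -0.0050. With Y-linked expression as a covariate, Col5a2 (0.11) and Col1a2 (0.041) turned positive. Some members also varied together across the libraries, so their signs are not independent. All 7 members passed the filter on low counts. In sorted cells in bulk, fewer cells that make a collagen and less RNA per cell cannot be told apart.

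Col5a3, which encodes a chain of type V collagen, was the member that differed most. It stood at 1389, 1432, 919 and 1111 CPM across WT mice 1 to 4 and at 652, 772, 431 and 532 CPM across Pdgfra-Cre:LmnaF/F mice 1 to 4. Every Pdgfra-Cre:LmnaF/F library lay below every WT library, a pattern shown by 3.97% of all genes tested and by 1 of the 7 members. The means were 1212.5 ± 242 CPM in the WT and 597 ± 148 CPM in the Pdgfra-Cre:LmnaF/F cells (SD, n = 4), and the log2 fold change was -1.02 (SE 0.23, 95% confidence interval -1.52 to -0.53). The unadjusted p was 0.000548, rank 85 of 13036 genes, and the adjusted p was 0.0833 in the quasi-likelihood test of edgeR, above the threshold. Over the alternatives of edgeR with all 8 libraries the adjusted p of Col5a3 lay between 0.0115 (no filter on low counts) and 0.124 (Y-linked expression as a covariate). It was 0.000627 with DESeq2 and 0.0113 with limma-voom. Leaving out any of the 8 libraries moved the log2 fold change to no less than -1.17 and no more than -0.89.

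The lower Col5a3 level was seen among libraries of both kinds of Y-linked expression. Among the libraries at or near 0 for the Y-linked genes, the lone WT library had 919 CPM and the 3 Pdgfra-Cre:LmnaF/F libraries 431 to 772 CPM. Among the others, the 3 WT libraries had 1111 to 1432 CPM and the lone Pdgfra-Cre:LmnaF/F library 532 CPM. Without Pdgfra-Cre:LmnaF/F replicate 4, the library with high myocyte and hematopoietic markers, the log2 fold change was -0.97. Within type V collagen, Col5a3 made up 18.3% to 22.4% of the CPM of the 3 chains in the WT libraries and 10.6% to 19.7% in the Pdgfra-Cre:LmnaF/F libraries. The highest Pdgfra-Cre:LmnaF/F share was that of replicate 2 and lay inside the WT range.

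**Figure D2:**
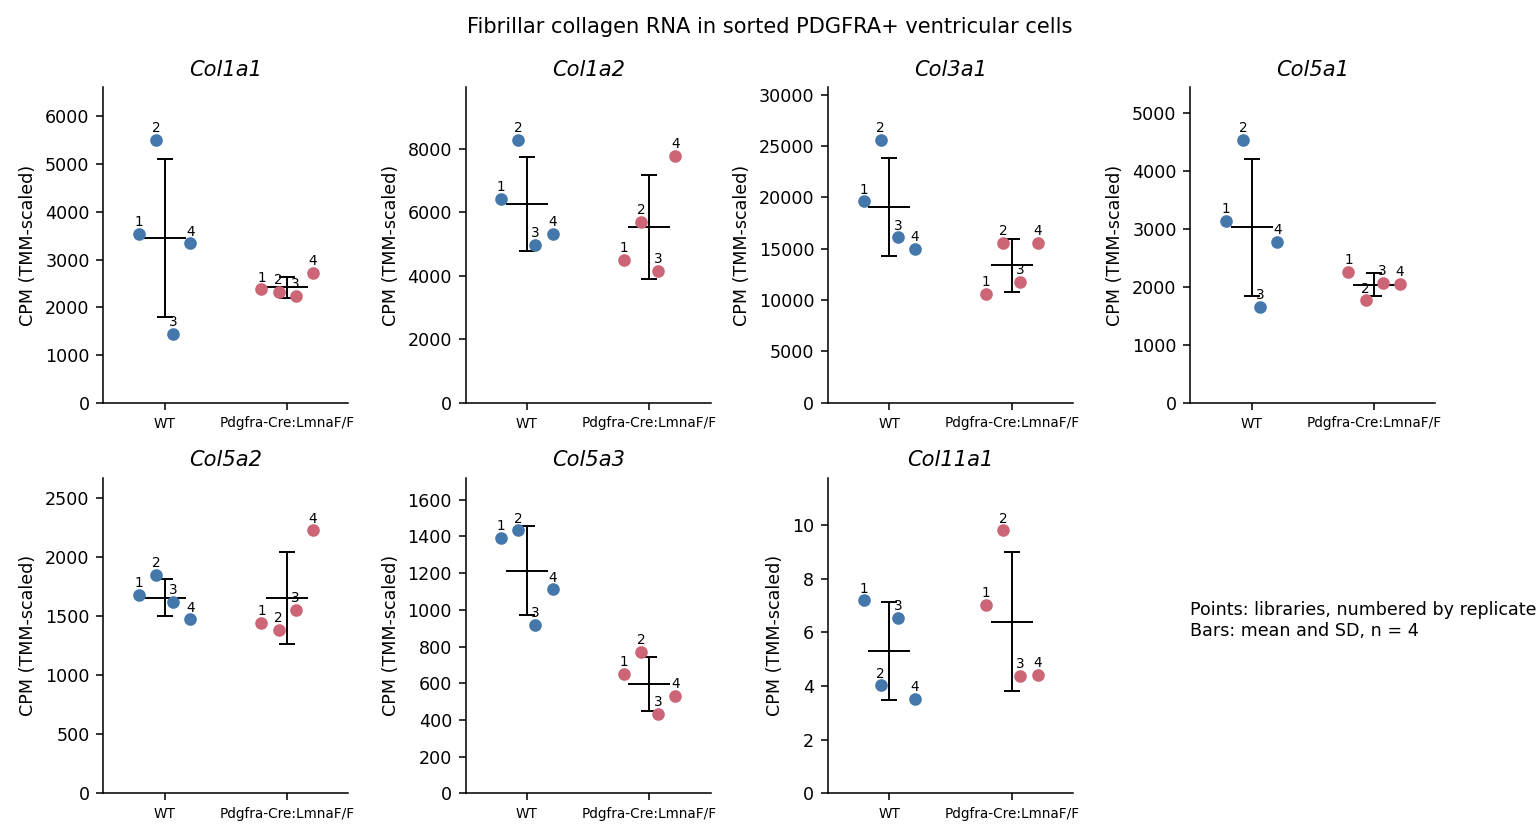
CPM (TMM-scaled) of each member in every library, numbered by replicate, with the mean and SD of 4 WT and 4 Pdgfra-Cre:LmnaF/F libraries; each axis starts at 0. The Col5a3 points of the genotypes do not overlap (919 CPM and above against 772 CPM and below), and those of the other 6 members do.

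The fold changes fitted for the remaining type V chains lay closer to 0. Col5a1, the chain that nearly every type V molecule contains, stood at 3134, 4539, 1662 and 2776 CPM across WT mice 1 to 4 and at 2255, 1770, 2077 and 2051 CPM across Pdgfra-Cre:LmnaF/F mice 1 to 4. The WT libraries were widely spread, and WT replicate 3 lay below every Pdgfra-Cre:LmnaF/F library. The log2 fold change of Col5a1 was -0.57 (SE 0.27, 95% confidence interval -1.14 to -0.0031, adjusted p = 0.416 from edgeR). It was -0.31 without WT replicate 2 and -0.78 without WT replicate 3. Within the libraries low in Y-linked genes the direction was the opposite, with 1662 CPM in the WT library and 1770 to 2255 CPM in the 3 Pdgfra-Cre:LmnaF/F libraries. Within those high in Y-linked genes, the WT libraries had 2776 to 4539 CPM and the Pdgfra-Cre:LmnaF/F library 2051 CPM.

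Col5a2, the partner chain of Col5a1, stood at 1681, 1850, 1620 and 1471 CPM across WT mice 1 to 4 and at 1444, 1381, 1550 and 2223 CPM across Pdgfra-Cre:LmnaF/F mice 1 to 4. The WT libraries were tight, and the highest value belonged to Pdgfra-Cre:LmnaF/F replicate 4. That library had high myocyte and hematopoietic markers and, alone in its genotype, expressed the Y-linked genes. Its log2 fold change was -0.0050 (SE 0.21, 95% confidence interval -0.46 to 0.45, adjusted p = 0.997 from edgeR), so changes of the size fitted for Col5a3 lay outside the interval. It was -0.18 without Pdgfra-Cre:LmnaF/F replicate 4, and it turned to 0.042 with library totals only and 0.11 with Y-linked expression as a covariate. Among the libraries low in Y-linked genes Col5a2 was 1620 CPM in the WT library and 1381 to 1550 CPM in the Pdgfra-Cre:LmnaF/F libraries. Among the others it was 1471 to 1850 CPM against 2223 CPM.

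The type I chains gave intervals that included 0. Col1a1, which supplies most of the type I molecule, stood at 3532, 5508, 1451 and 3342 CPM across WT mice 1 to 4 and at 2377, 2327, 2245 and 2730 CPM across Pdgfra-Cre:LmnaF/F mice 1 to 4. The SD was 1658 CPM in the WT and 214 CPM in the Pdgfra-Cre:LmnaF/F libraries, and the WT libraries held both the highest and the lowest value. The log2 fold change of Col1a1 was -0.51 (SE 0.31, 95% confidence interval -1.17 to 0.14, adjusted p = 0.560 from edgeR). WT replicates 2 and 3 decided its size, since it was -0.20 without WT replicate 2 and -0.77 without WT replicate 3. Among libraries low in Y-linked genes Col1a1 was higher in the Pdgfra-Cre:LmnaF/F cells, with 1451 CPM in the WT library against 2245 to 2377 CPM. Among the others it was lower, with 3342 to 5508 CPM against 2730 CPM, and with Y-linked expression as a covariate the log2 fold change was -0.054.

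Col1a2, the second chain of type I collagen, stood at 6432, 8288, 4987 and 5330 CPM across WT mice 1 to 4 and at 4502, 5694, 4169 and 7785 CPM across Pdgfra-Cre:LmnaF/F mice 1 to 4. The groups overlapped in part, with Pdgfra-Cre:LmnaF/F replicates 1 and 3 below every WT library and WT replicate 2 above every Pdgfra-Cre:LmnaF/F library. Its fitted log2 change was -0.18 (SE 0.25, 95% confidence interval -0.72 to 0.36, adjusted p = 0.858 from edgeR). It was -0.017 without WT replicate 2, -0.39 without Pdgfra-Cre:LmnaF/F replicate 4 and 0.041 with Y-linked expression as a covariate. Among libraries low in Y-linked genes the WT library had 4987 CPM and the Pdgfra-Cre:LmnaF/F libraries 4169 to 5694 CPM, and among the others the values were 5330 to 8288 CPM and 7785 CPM.

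Col3a1, the chain of type III collagen and the highest member, stood at 19611, 25589, 16112 and 14984 CPM across WT mice 1 to 4 and at 10631, 15554, 11797 and 15572 CPM across Pdgfra-Cre:LmnaF/F mice 1 to 4. The groups overlapped only through WT replicate 4, which lay below Pdgfra-Cre:LmnaF/F replicates 2 and 4. The log2 fold change was -0.51 (SE 0.24, 95% confidence interval -1.03 to 0.0062, unadjusted p = 0.0525 and adjusted p = 0.427 from edgeR). Leaving out WT replicate 4 gave -0.61 and leaving out WT replicate 2 gave -0.34, the extremes over the 8 libraries. Among libraries low in Y-linked genes Col3a1 was 16112 CPM in the WT library and 10631 to 15554 CPM in the Pdgfra-Cre:LmnaF/F libraries. Among the others it was 14984 to 25589 CPM against 15572 CPM.

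Col11a1, a chain of the cartilage collagen type XI, stood at 7.19, 4.03, 6.55 and 3.52 CPM across WT mice 1 to 4 and at 7.03, 9.80, 4.37 and 4.42 CPM across Pdgfra-Cre:LmnaF/F mice 1 to 4. The groups overlapped. Its fitted log2 change was 0.26 (SE 0.65, 95% confidence interval -1.13 to 1.65, adjusted p = 0.929 from edgeR). A change of the size fitted for Col5a3, in either direction, lay inside that interval. It was -0.024 without Pdgfra-Cre:LmnaF/F replicate 2. Among libraries low in Y-linked genes it was 6.55 CPM against 4.37 to 9.80 CPM, and among the others 3.52 to 7.19 CPM against 4.42 CPM.

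**Figure D3:**
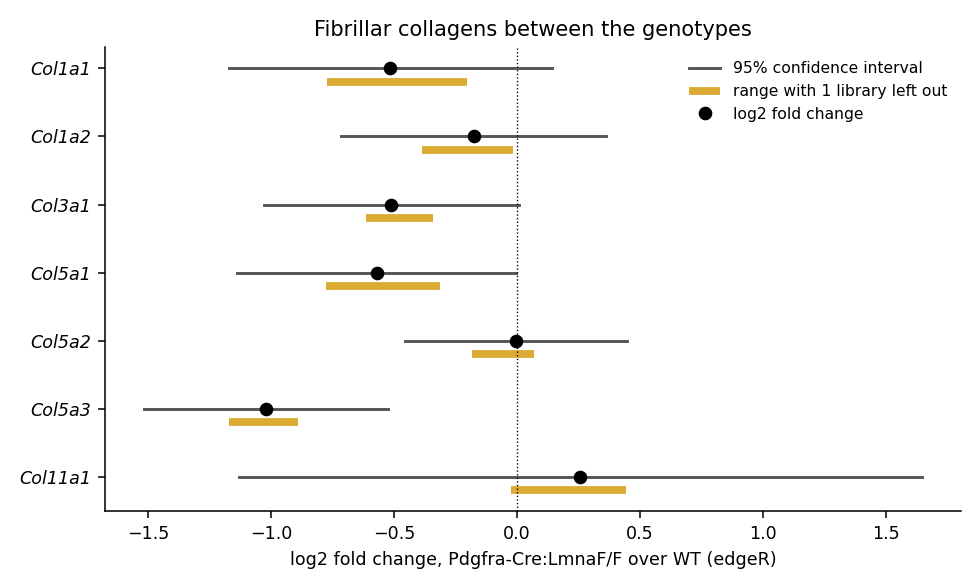
Log2 fold change of Pdgfra-Cre:LmnaF/F over WT for each member from edgeR, with its 95% confidence interval (line) and the range of the estimate with 1 of the 8 libraries left out (thick bar). The interval of Col5a3 (-1.52 to -0.53) lies well below 0, that of Col5a1 ends at -0.0031, and those of the other 5 members include 0.

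Chains of the same collagen type can assemble together, so ratios of collagen RNAs within a library were compared as well. The ratios of Col3a1 and of Col5a1 to Col1a1 relate chains of different collagen types. A ratio within a library does not depend on library size or scaling. The ratio of Col1a1 to Col1a2 counts was 0.549, 0.665, 0.291 and 0.627 in WT replicates 1 to 4 and 0.528, 0.409, 0.538 and 0.351 in Pdgfra-Cre:LmnaF/F replicates 1 to 4. The groups overlapped, and the difference of mean log2 ratio was -0.18 (p = 0.571, adjusted p = 0.762, exact two-sided permutation test over 70 assignments, 4 ratios adjusted together). It was -0.048 without WT replicate 2 and -0.44 without WT replicate 3, the extremes over the 8 libraries. The smallest p that this test allows is 0.0286.

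The ratio of Col5a1 to Col5a2 had the largest difference of the 4 ratios. It was 1.86, 2.45, 1.03 and 1.89 in WT replicates 1 to 4 and 1.56, 1.28, 1.34 and 0.923 in Pdgfra-Cre:LmnaF/F replicates 1 to 4. The WT libraries other than replicate 3 lay above all Pdgfra-Cre:LmnaF/F libraries. The difference of mean log2 ratio was -0.46 (p = 0.229, adjusted p = 0.762, exact permutation test). It was -0.29 without WT replicate 2 and -0.71 without WT replicate 3.

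The ratio of Col3a1 to Col1a1, type III against type I, was 5.55, 4.65, 11.1 and 4.48 in the WT and 4.47, 6.68, 5.26 and 5.70 in the Pdgfra-Cre:LmnaF/F replicates 1 to 4. WT replicate 3 was far above all other libraries. The difference of mean log2 ratio was -0.13 (p = 0.800, adjusted p = 0.800, exact permutation test) and turned to 0.17 without WT replicate 3. The ratio of Col5a1 to Col1a1, which relates the chain inside the fibril to the chain of its bulk, was 0.887, 0.824, 1.15 and 0.831 in the WT and 0.949, 0.760, 0.925 and 0.751 in the Pdgfra-Cre:LmnaF/F replicates 1 to 4. Its groups overlapped, with a difference of mean log2 ratio of -0.12 (p = 0.457, adjusted p = 0.762, exact permutation test). It was -0.0093 without WT replicate 3.

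**Figure D4:**
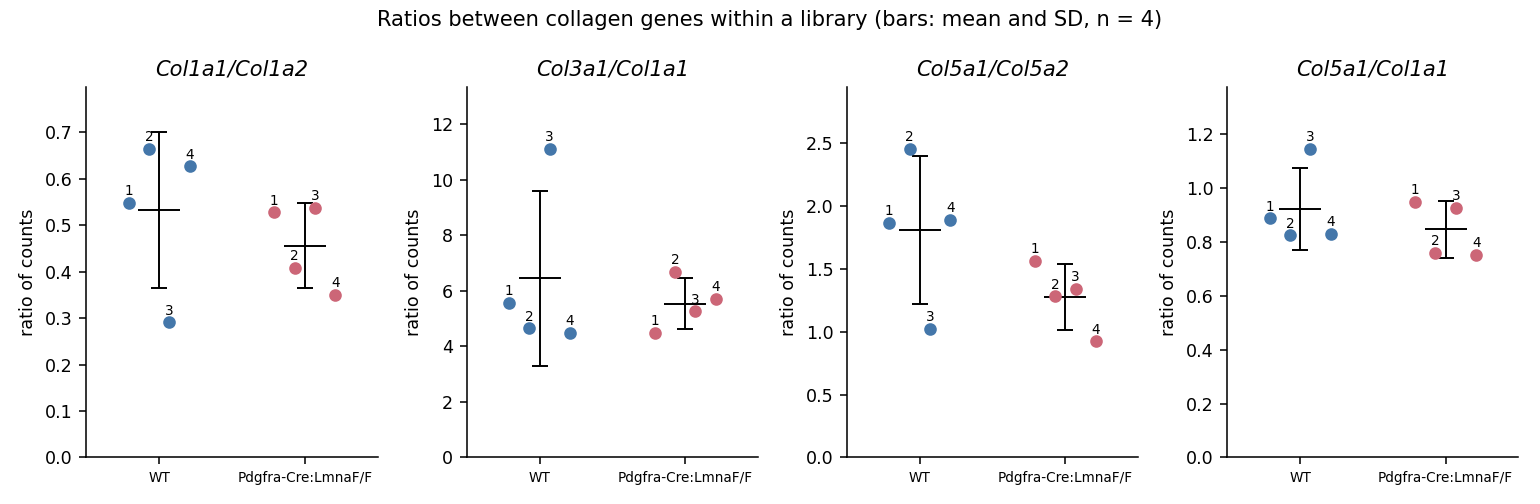
Ratio of the counts of 2 collagen genes in each library, numbered by replicate, with the mean and SD of 4 WT and 4 Pdgfra-Cre:LmnaF/F libraries; each axis starts at 0. The groups overlap in all 4 ratios, and WT replicate 3 has the highest Col3a1 to Col1a1 ratio, 11.1.

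Across the 8 libraries, Col1a1 and Col5a1 had the highest correlation of the 21 pairs of members. Pearson's r of their log2 CPM was 0.942 (Spearman's rho 0.881, n = 8 libraries), 0.957 for deviations from the genotype means, and 0.884 without WT replicates 2 and 3, the libraries farthest from the median of Col1a1. Col1a2 and Col3a1 had an r of 0.820, and of 0.897 without WT replicate 2 and Pdgfra-Cre:LmnaF/F replicate 4, the libraries farthest from the median of Col1a2. Col5a2 and Col5a3, chains of the same collagen type, had an r of -0.020, and of 0.361 without the same 2 libraries. These values describe 8 libraries that differ in depth, from cells sorted by the same markers, with no test. Outside the family, the genes with the highest r with Col1a1 were Aebp1 (0.985), which encodes a collagen-binding protein of the fibroblast matrix, Aqr (0.970), Cc2d1a (0.964), Arl8a (0.964) and Agpat3 (0.959), over 8 libraries. Their log2 fold changes lay between -0.61 for Aebp1 and -0.14 for Agpat3, and their adjusted p between 0.464 and 0.858 (edgeR). WT replicates 2 and 3 moved these values as well. The log2 fold change of Aebp1 was -0.27 without WT replicate 2 and -0.87 without WT replicate 3, and that of Agpat3 was -0.034 and -0.26.

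The genes that process procollagen were described next, from lists given by role and chosen with earlier results of these data known. Before the chains fold, prolyl 4-hydroxylases modify the prolines of the Gly-X-Y repeat, lysyl hydroxylases and galactosyltransferases modify its lysines, and chaperones hold the helix. Of 21 tested genes for folding and modification, 1 was called lower and 0 higher (edgeR), against 0.407% of all genes tested. At an unadjusted p under 0.05, 8 were lower and 0 higher, against 11.9% of all genes in either direction. The median log2 fold change was -0.40, against 0.025 over all genes. The called gene was P4ha2, a catalytic subunit of prolyl 4-hydroxylase. It stood at 52.6, 103, 101 and 63.9 CPM across WT mice 1 to 4 and at 41.2, 25.3, 24.8 and 15.9 CPM across Pdgfra-Cre:LmnaF/F mice 1 to 4. The groups did not overlap. P4ha2 fell by 1.58 on the log2 scale (SE 0.31, adjusted p = 0.0446 from edgeR). The call was lost without WT replicate 2, 3 or 4 or Pdgfra-Cre:LmnaF/F replicate 2, 3 or 4, where the adjusted p was 0.0525 to 0.161, with limma-voom (0.0596), with library totals only (0.0572) and with a replicate block (0.0742). The log2 fold change lay between -1.87 and -1.39 over the 8 omissions.

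Others of this list did not pass the adjusted threshold of edgeR. Colgalt2, a collagen galactosyltransferase, had 147 to 187 CPM in the WT and 49.7 to 108 CPM in the Pdgfra-Cre:LmnaF/F libraries, without overlap (log2 fold change -0.90, SE 0.24, adjusted p = 0.134). Creb3l1, a transcription factor that acts on collagen genes, had 34.7 to 77.0 CPM and 11.2 to 38.2 CPM (log2 fold change -1.25, SE 0.35, adjusted p = 0.159). Serpinh1, the procollagen chaperone HSP47, was named after its values were seen. It had 2259 to 4302 CPM in the WT and 818 to 2090 CPM in the Pdgfra-Cre:LmnaF/F libraries (log2 fold change -0.98, SE 0.30, adjusted p = 0.198). In DESeq2 the adjusted p was 0.0271 for Colgalt2, 0.0445 for Creb3l1 and 0.0275 for Serpinh1.

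After secretion, proteinases cut the propeptides from the ends of the chain, and the trimmed rods then join fibrils. Of 7 tested genes for propeptide removal, 0 were called (edgeR, median log2 fold change -0.21). At an unadjusted p under 0.05, 2 were lower and 0 higher, against 11.9% of all genes tested. Pcolce, which enhances the cutting of the C-propeptide, had 1132 to 1897 CPM in the WT and 594 to 945 CPM in the Pdgfra-Cre:LmnaF/F libraries, without overlap (log2 fold change -0.90, SE 0.24, adjusted p = 0.133, and 0.00661 in DESeq2). Adamts14, an N-proteinase, had a log2 fold change of -0.76 (SE 0.32, adjusted p = 0.364), which was -0.49 without WT replicate 2. Of the 6 crosslinking genes, 0 were called (median -0.42). At an unadjusted p under 0.05, 3 were lower and 1 higher, against 11.9% of all genes tested. Lox, the lysyl oxidase, had 73.3 to 154 CPM in the WT and 115, 168, 373 and 826 CPM in Pdgfra-Cre:LmnaF/F replicates 1 to 4 (log2 fold change 1.86, SE 0.48, adjusted p = 0.125), with its highest value in replicate 4. Without that library, the log2 fold change of Lox was 1.10. Its relative Loxl2 had 496 to 869 CPM and 255 to 503 CPM (log2 fold change -0.88, SE 0.25, adjusted p = 0.160, and 0.0189 in DESeq2).

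Proteins bound to the fibril surface adjust its growth. Of 16 tested genes of fibril-associated and fibril-regulating matrix, 0 were called by edgeR, with a median log2 fold change of -0.60. At an unadjusted p under 0.05, 8 were lower and 2 higher, against 11.9% of all genes tested. Prelp, a leucine-rich proteoglycan that anchors collagen to the basement membrane, had 535 to 710 CPM in the WT and 238 to 445 CPM in the Pdgfra-Cre:LmnaF/F libraries, without overlap (log2 fold change -0.996, SE 0.22, adjusted p = 0.0791, and 0.000627 in DESeq2). Col6a2, a chain of the beaded-filament collagen type VI, had 1463 to 3909 CPM and 778 to 1574 CPM (log2 fold change -1.21, SE 0.30, adjusted p = 0.114, and 0.00195 in DESeq2). Thbs2, a matricellular protein named after its values were seen, had 497 to 1191 CPM in the WT and 1079 to 3420 CPM in the Pdgfra-Cre:LmnaF/F libraries (log2 fold change 1.36, SE 0.36, adjusted p = 0.130, and 0.00342 in DESeq2). Postn, a marker of activated fibroblasts, had 204 to 595 CPM in the WT, 293 to 568 CPM in Pdgfra-Cre:LmnaF/F replicates 1 to 3, and 3040 CPM in replicate 4. Its log2 fold change was 1.68 (SE 0.60, adjusted p = 0.264) and 0.37 without that library.

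Cells bind and take up the finished fibrils through receptors. Of the 7 collagen receptor genes, 1 was called lower and 0 higher, against 0.407% of all genes tested (edgeR, median log2 fold change -0.31). It was Itga11, the alpha chain of integrin alpha11beta1, which binds fibrillar collagen on fibroblasts. Itga11 stood at 93.7, 110, 132 and 76.2 CPM across WT mice 1 to 4 and at 19.2, 38.0, 8.52 and 27.2 CPM across Pdgfra-Cre:LmnaF/F mice 1 to 4. The groups did not overlap. Itga11 fell by 2.14 on the log2 scale (SE 0.36, adjusted p = 0.0232 from edgeR). The adjusted p was 0.0513 without WT replicate 2 and under the threshold without any other library. The next receptors by p were Itga2, another collagen-binding integrin chain (log2 fold change -1.04, SE 0.54, adjusted p = 0.478), and Ddr2, a collagen-activated kinase (log2 fold change -0.31, SE 0.19, adjusted p = 0.574). Of 8 genes of collagen breakdown and uptake, 0 were called, and the median was 0.077. At an unadjusted p under 0.05, 2 were lower and 1 was higher, against 11.9% of all genes tested. Mrc2, the endocytic collagen receptor, had a log2 fold change of -0.67 (SE 0.21, adjusted p = 0.199, and 0.0348 in DESeq2). Timp1, an inhibitor of collagenases, had one of 1.63 (SE 0.49, adjusted p = 0.192, and 0.0408 in DESeq2). Timp1 had 18.5 to 38.2 CPM in the WT and 65.3, 83.0, 13.2 and 129 CPM in Pdgfra-Cre:LmnaF/F replicates 1 to 4. Replicate 3 thus lay below every WT library, and replicate 4 was the highest.

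Signals to the collagen genes were the last group. Of 11 tested genes of TGF-beta signaling to collagen genes, 0 were called by edgeR, and the median log2 fold change was 0.078. At an unadjusted p under 0.05, 1 was lower and 1 higher, against 11.9% of all genes tested. Tgfbr1, a TGF-beta receptor, had 75.5 to 101 CPM in the WT and 105 to 206 CPM in the Pdgfra-Cre:LmnaF/F libraries, without overlap (log2 fold change 0.83, SE 0.23, adjusted p = 0.138, and 0.0410 in DESeq2). The ligand gene Tgfb3 had a log2 fold change of -0.55 (SE 0.19, adjusted p = 0.249). Of 5 tested genes of activated fibroblasts, 0 were called and 1 was higher at an unadjusted p under 0.05 (median -0.083). That gene was Cthrc1, a secreted protein of scar fibroblasts, with 0 to 1.55 CPM in the WT and 2.07, 4.69, 4.37 and 36.5 CPM in Pdgfra-Cre:LmnaF/F replicates 1 to 4 (log2 fold change 4.08, SE 1.12, adjusted p = 0.146 from edgeR and 0.00588 in DESeq2). It was 2.43 without replicate 4. Meox1, a transcription factor of activated fibroblasts, had a log2 fold change of -0.46 (SE 0.27, adjusted p = 0.550), which was -0.073 without WT replicate 3. Of the 4 fibrillar collagens outside the 7 members, 0 were called. The 2 of lowest p, Col2a1 and Col24a1, stayed under 10 CPM in every library (log2 fold changes 0.89 and 1.10, adjusted p = 0.858 and 0.778, edgeR). With 1 library omitted, the values lay between 0.46 and 1.28 for Col2a1 and 0.63 and 1.48 for Col24a1.

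**Figure D5:**
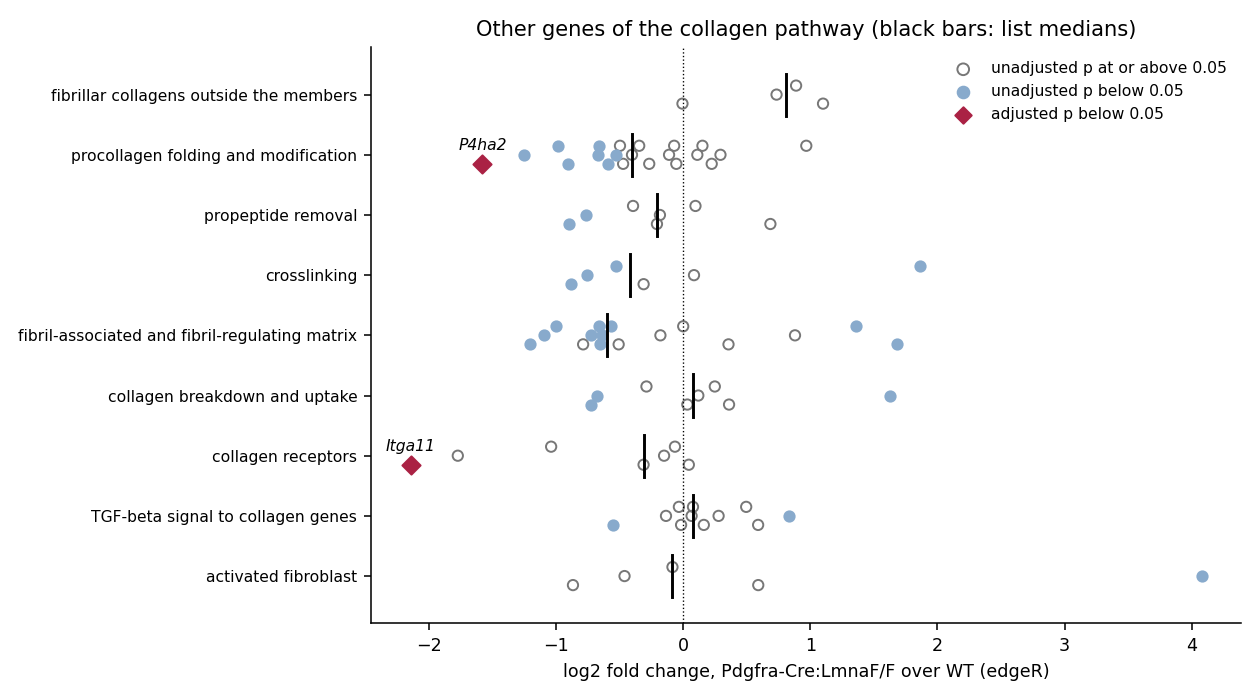
Log2 fold change (edgeR, Pdgfra-Cre:LmnaF/F over WT) of each tested gene of the 9 lists; each point is a gene, and black bars are the medians of the lists. P4ha2 (-1.58) and Itga11 (-2.14) are the genes with an adjusted p below 0.05.

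The members also share regulatory sequence that did not enter their choice. The miR-29 family, microRNAs that repress matrix genes, has a common seed (bases 2 to 8), shown in capitals in the mature sequences from RefSeq (GRCm38.p6).
miR-29a-3p: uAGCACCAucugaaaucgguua
miR-29b-3p: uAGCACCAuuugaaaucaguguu
miR-29c-3p: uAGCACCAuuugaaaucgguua
The reverse complement of the seed, TGGTGCT, occurred in the annotated 3′ UTR of 6 of the 7 members, on the sense strand. It occurred 4 times in Col5a1, 3 times in Col5a3, 2 times in Col11a1 and once each in Col1a1, Col3a1 and Col5a2, and 0 times in Col1a2. Among deposited genes whose 3′ UTR was as long as those of the members (785 to 2498 bases), 14.3% held it. A site of each of 3 members that are discussed above is printed with the match in capitals.
Col1a1 site: tgggaaggaatttcTGGTGCTatagaag
Col3a1 site: tcaaaatgtctcaaTGGTGCTataataa
Col5a3 site: tccaccaggcctttTGGTGCTattcctt
In each of the 3 the match was followed by an A, the 8-base form of the site. A match is a description of the sequence. The levels of the microRNAs were not examined here. Side by side, the log2 fold change was -0.57 for Col5a1 with 4 sites, -1.02 for Col5a3 with 3, and -0.51, -0.51 and -0.0050 for Col1a1, Col3a1 and Col5a2 with 1 each. It was 0.26 for Col11a1 with 2 sites and -0.18 for Col1a2 with 0.

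The promoters of the members held different short motifs in part. The RefSeq table (GRCm38.p6) held 5 of the 7, and Col1a1 and Col5a2 were not in it. The 250 bases before the start of the highest member and of both type V chains in the table are shown, in the direction of transcription, with the CCAAT box (spelled CCAAT), the GC box (spelled GGGCGG) and the TATA box (spelled TATAAA) in capitals, on either strand and with no overlap among them. They are those of Col3a1 (chr1:45311288-45311537, + strand), Col5a1 (chr2:27886175-27886424, + strand) and Col5a3 (chr9:20815068-20815317, - strand).
Col3a1: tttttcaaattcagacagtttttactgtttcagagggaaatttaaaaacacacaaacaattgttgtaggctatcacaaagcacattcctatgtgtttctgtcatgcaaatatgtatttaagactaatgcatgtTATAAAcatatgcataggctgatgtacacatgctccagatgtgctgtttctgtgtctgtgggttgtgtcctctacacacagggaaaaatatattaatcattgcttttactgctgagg
Col5a1: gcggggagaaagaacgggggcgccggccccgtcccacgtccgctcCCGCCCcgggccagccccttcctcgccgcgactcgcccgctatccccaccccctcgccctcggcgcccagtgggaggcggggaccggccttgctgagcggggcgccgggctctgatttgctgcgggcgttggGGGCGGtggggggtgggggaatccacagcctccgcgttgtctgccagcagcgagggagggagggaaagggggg
Col5a3: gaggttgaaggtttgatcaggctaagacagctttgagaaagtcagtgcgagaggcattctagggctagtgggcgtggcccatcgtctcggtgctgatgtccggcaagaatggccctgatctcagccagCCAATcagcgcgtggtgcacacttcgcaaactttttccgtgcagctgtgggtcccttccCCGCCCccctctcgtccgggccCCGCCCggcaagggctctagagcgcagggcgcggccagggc
Col3a1 held a TATA box (TATAAA, in 12.4% of 32851 promoters) and 0 GC boxes (GGGCGG, in 32.7%) or CCAAT boxes (in 33.8%). Col5a1 held 2 GC boxes, and Col5a3 held 2 GC boxes and a CCAAT box. The letters of Col1a2 and Col11a1, like those of Col5a3, held 1 CCAAT box and 2 GC boxes.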

How the data were processed

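Reads of the strand-specific libraries were mapped by the authors to mm10 (HISAT2) and assigned to GENCODE genes (featureCounts), and the deposited values are whole-number counts per gene symbol, 1 table per library. RUV and DESeq2 followed in their pipeline and are not in these values. Groups were taken from the sample labels. These counts were fitted with edgeR 4.0.16 under R 4.3.3 (filterByExpr, 13036 of 18957 genes; TMM factors; quasi-likelihood test on genotype alone; Benjamini-Hochberg adjustment over all genes tested), with limma 3.58.1 and DESeq2 1.42.0 as alternatives. The procedure was tested on simulated data. CPM were divided by exon length from GENCODE M21. Ratios between chains were compared with exact permutation tests. The alternatives were other factors and filters, a replicate block, RUVr with 1 factor, Y-linked expression as a covariate, and leaving out each library. Depths of 2080555 to 12502949 counts cover counting error only, and p-values measure the spread between mice.

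The members and lists were chosen with earlier results of these data known. Genes named beyond the members were Lmna, genes of each list past an adjusted p of 0.05 with the 2 of lowest p besides, the 5 most like Col1a1, and markers. Serpinh1, Thbs2, Postn, Thy1, Csf1r, Cdh5, Tek, Myh7, Btg2 and Nr4a1 were named after their values were seen. Ccn2 is listed in the counts as Ctgf.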

Additional observations from a re-analysis of the deposited data

Results flagged for a closer look

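The ratio of Col3a1 to Col1a1 in WT replicate 3, 11.1, lay far from the 3 other WT libraries (4.48 to 5.55). Its gap to the nearest library was 0.838 of the range of the group, above the critical value of Dixon's test for 4 samples. This was 1 of 24 groups of 4 values examined (the members, Lmna and the chain ratios in each genotype), and chance alone puts about 1 in 20 such groups past the critical value. WT replicate 3 was also the lowest library for Col1a1 (1451 CPM) and the lone WT library at or near 0 for the Y-linked genes.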

How the results depend on the processing

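Of 962 values recomputed under an alternative, 851 kept their direction and their side of the threshold, or for levels and counts their size, and the cause of the other changes was not tested. The number of genes called, 53, became 309 with DESeq2, 126 with limma-voom, 274 without a filter on low counts, 82 with RUVr and 114 with Y-linked expression as a covariate, and lay between 13 and 76 with 1 library omitted. Members called were 1 with DESeq2, limma-voom or no filter, each time Col5a3 (log2 fold change -1.02, -1.10 and -1.04), and 0 otherwise. Genes called in the pathway lists, 2, became 18 with DESeq2, 6 with limma-voom, 14 without a filter, 5 with the Y-linked covariate and 1 with library totals only, and lay between 0 and 4 with 1 library omitted. Directions turned for Col1a2 with the Y-linked covariate (0.041), for Col5a2 with library totals only (0.042), at least 10 counts in every library (0.015) and the Y-linked covariate (0.11), for Col2a1 with limma-voom (-0.34), for Cc2d1a with the Y-linked covariate (0.20), and for Tcf21 with library totals only (0.044) and RUVr (0.060). With 1 library omitted, the log2 values lay between -0.18 and 0.068 for Col5a2, -0.024 and 0.44 for Col11a1, -0.27 and 0.18 for Tcf21, and -0.27 and 0.17 for the ratio of Col3a1 to Col1a1. With the length of the longest transcript, the mean of the 8 libraries became 1103 CPM per kb for Col1a2, 2917 for Col3a1, 249 for Col5a2 and 0.765 for Col11a1.

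The labels repeat the replicate numbers 1 to 4 in both genotypes. Deviations from the genotype means correlated at -0.027, -0.030, -0.0041 and 0.040 between libraries of the same number, over 13036 genes, and not every library correlated best with its own number, so the numbers were not taken as pairs. With a replicate block, 36 genes, 0 members and 1 pathway gene, Itga11, were called, and Col5a3 had a log2 fold change of -1.03 (adjusted p = 0.0764, edgeR). For the ratios, exact sign flips over 4 pairs gave adjusted p of 0.750 (Col5a1 to Col5a2 and Col5a1 to Col1a1) and 0.875 (Col1a1 to Col1a2 and Col3a1 to Col1a1), where the smallest p is 0.125. Col11a1 rested on 8 to 94 counts per library.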
